A study of Homo sapiens with 10 samples.

Results

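UBD, the gene of the ubiquitin-like protein FAT10, was described together with 5 immunoproteasome genes in 3 human liver cancer cell lines. PSMB8, PSMB9 and PSMB10 encode the catalytic subunits of the immunoproteasome, and PSME1 and PSME2 encode the alpha and beta subunits of its activator PA28. The 6 genes were taken by symbol from a table of 20030 entries, and all 6 were among the 10477 genes that passed the filter on low values, which asked for 1 FPKM or more on average. FPKM is a fragment count corrected for transcript length and library size. UBD was selected on its level with the combined treatment against control in earlier work on these data, and the other genes were chosen by name as its functional companions. Values of all 6 in that comparison are therefore given as a description, without p-values. The number called there is printed, and nothing is read from it. PSMB8 passed the filter through its levels in 2 of the lines and PSMB9 mainly through 97H, so their presence among the tested genes carries no information.

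FAT10 is attached to proteins by the E1 enzyme UBA6 and the E2 enzyme UBE2Z and sends them to the proteasome for degradation without needing ubiquitin. The immunoproteasome is a form of the proteasome in which PSMB8, PSMB9 and PSMB10 take the places of the constitutive subunits PSMB5, PSMB6 and PSMB7, which alters the peptides that are cut for display on MHC class I molecules. Interferon gamma and tumour necrosis factor are the classical inducers of UBD and of the immunoproteasome genes, and UBD is known for its high level in many liver cancers.

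The labels call the lines Huh7, PLC and 97H. Each was grown with vehicle (control) or with a CDK4/6 inhibitor, and PLC and 97H also with an XPO1 inhibitor, KPT330 in the sample titles, or with both inhibitors (combination). CDK4 and CDK6 are the kinases that drive entry into S phase, and XPO1 is the main export receptor of the nucleus. The sources used here give no dose, no time and no name for the CDK4/6 inhibitor. Every combination of line and treatment that was grown is represented by a single library, 10 in all, so control and CDK4/6 inhibitor have 3 libraries each and the other two treatments 2 each. The replicate of a treatment is therefore the cell line, and a difference within 1 line has no replicate.

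Read totals are unknown, because the table holds FPKM. The relative depth of the libraries, estimated from the smallest values, ran from 0.863 to 1.14 with the PLC combination library set to 1. Only 1.23% to 4.38% of the low genes informed this estimate. Of 11 hepatocyte and liver cancer markers, 11 reached 1 FPKM in every Huh7 and PLC library and 8 or 9 in the 97H libraries, where APOB and GPC3 stayed under 1 FPKM. Of 14 immune cell markers, 2 to 5 reached 1 FPKM. Their summed level was 40.9 FPKM in PLC control and 117, 259 and 219 FPKM in PLC with the CDK4/6 inhibitor, the XPO1 inhibitor and the combination, 58.8 FPKM in 97H control and 102, 63.7 and 126 FPKM in 97H in the same order, and 116 and 165 FPKM in the Huh7 control and CDK4/6 inhibitor libraries. In PLC and 97H nearly all of that sum came from LYZ, CD68 and CD79A. In Huh7 most came from LYZ, at 104.8 FPKM in control and 137.7 FPKM with the CDK4/6 inhibitor. CD3D was at 2.73 and 8.56 FPKM there, CD74 at 4.10 and 7.52 FPKM, and CD68 at 2.77 and 8.55 FPKM. PTPRC, which marks all leukocytes, was at most 0.0226 FPKM in any library. Of 6 fibroblast markers, 5 reached 1 FPKM in both Huh7 libraries, with a sum of 34.8 FPKM in control and 141 FPKM with the CDK4/6 inhibitor. None reached it in PLC, and 1 or 2 did in 97H. Of 4 endothelial markers, none reached 1 FPKM in Huh7 or PLC and 1 or 2 did in 97H.

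The genes lie on chromosomes 6, 14 and 16 (GRCh38, GENCODE 29). UBD is at chromosome 6, 29555515 to 29559925, on the minus strand. PSMB8 (minus strand, 32840717 to 32844703) and PSMB9 (plus strand, 32844136 to 32859585) adjoin each other on chromosome 6 beside TAP1, in the MHC class II region, and their annotated spans overlap. PSMB10 is on chromosome 16, 67934502 to 67937087, on the minus strand. PSME1 (24136158 to 24138967, plus strand) and PSME2 (24143362 to 24147570, minus strand) are neighbours on chromosome 14. Counting by strand is not stated, so reads of PSMB8, PSMB9 and the antisense gene PSMB8-AS1 in the shared stretches cannot be told apart. The same holds for PSMB9 and TAP1, for PSME1 and EMC9, and for PSME2 and RNF31. The annotated span of PSMB10 overlaps that of AC040162.1 on the same strand. The annotated span of UBD overlaps those of GABBR1 and OR2I1P.

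The promoters are shown because 4 of the 6 genes carry the core of the interferon-stimulated response element, GAAA, any 2 bases and GAAA on either strand, while UBD does not. The search covered 250 bases before to 50 after each start in RefSeq (GRCh38.p14), where all 6 genes had an entry, PSMB8 with 2 starts. Of 35116 promoters of this length, 3.57% hold this core. The second element, GAS (TTCNNNGAA), is in 7.66% of promoters and in PSMB8 alone among the 6. The third, the NF-kappaB consensus, is in 11.3% and in UBD alone among the 6. PSMB9 has no match to any of them in this window. The stretches below run from 5′ to 3′ on the strand of the gene, with the element in capitals: the 250 bases before the start of UBD (chr6:29559733-29559982, NF-kappaB consensus), the site across a start of PSMB8 (chr6:32844032-32844061), the 60 bases before the start of PSMB10 (chr16:67936851-67936910), the site just after the start of PSME1 (chr14:24136189-24136218) and the 60 bases before the start of PSME2 (chr14:24146611-24146670).
UBD: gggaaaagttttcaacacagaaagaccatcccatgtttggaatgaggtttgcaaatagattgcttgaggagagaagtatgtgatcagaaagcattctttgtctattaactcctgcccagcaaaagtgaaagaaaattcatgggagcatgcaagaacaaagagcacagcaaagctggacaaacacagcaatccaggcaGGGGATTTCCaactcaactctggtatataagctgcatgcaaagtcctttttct
PSMB8: gatctgtggcTTTCGCTTTCacttcctcct
PSMB10: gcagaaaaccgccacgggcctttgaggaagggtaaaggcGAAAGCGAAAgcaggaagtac
PSME1: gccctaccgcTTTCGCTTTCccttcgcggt
PSME2: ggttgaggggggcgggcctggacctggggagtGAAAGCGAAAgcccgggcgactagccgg
In PSMB10 and PSME2 the core reads on the strand of the gene, and in PSMB8 and PSME1 on the opposite strand. A match gives the letters only and was not tested for binding.

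UBD was low in untreated PLC and 97H, high in Huh7, and higher with each inhibitor than in the control of the same line in all 7 treated libraries. In Huh7 it was at 212 FPKM in control and 289.6 FPKM with the CDK4/6 inhibitor. Its PLC levels were 6.40, 106, 40.5 and 104 FPKM, in the order control, CDK4/6 inhibitor, XPO1 inhibitor, combination. In 97H the same 4 levels were 5.93, 16.85, 17.8 and 60.5 FPKM. The controls of PLC and 97H thus lay close together, and no treated library of either line reached the Huh7 control. The CDK4/6 inhibitor library stood at 16.5 times its control in PLC, 2.84 times in 97H and 1.37 times in Huh7. The ratio with the XPO1 inhibitor was 6.32 in PLC and 3.01 in 97H. Differences of at least 1 on the log2 scale of FPKM + 1, which UBD showed in all 6 treated PLC and 97H libraries, were common in PLC and rarer in 97H. With the CDK4/6 inhibitor, the XPO1 inhibitor and the combination 18.2%, 16.5% and 11.9% of all tested genes were that much higher in PLC, and 2.36%, 2.15% and 7.67% in 97H. The combination values of UBD belong to the contrast that selected it, and the single inhibitor values share its control libraries. Nothing about UBD is therefore read from these shares.

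**Figure D1:**
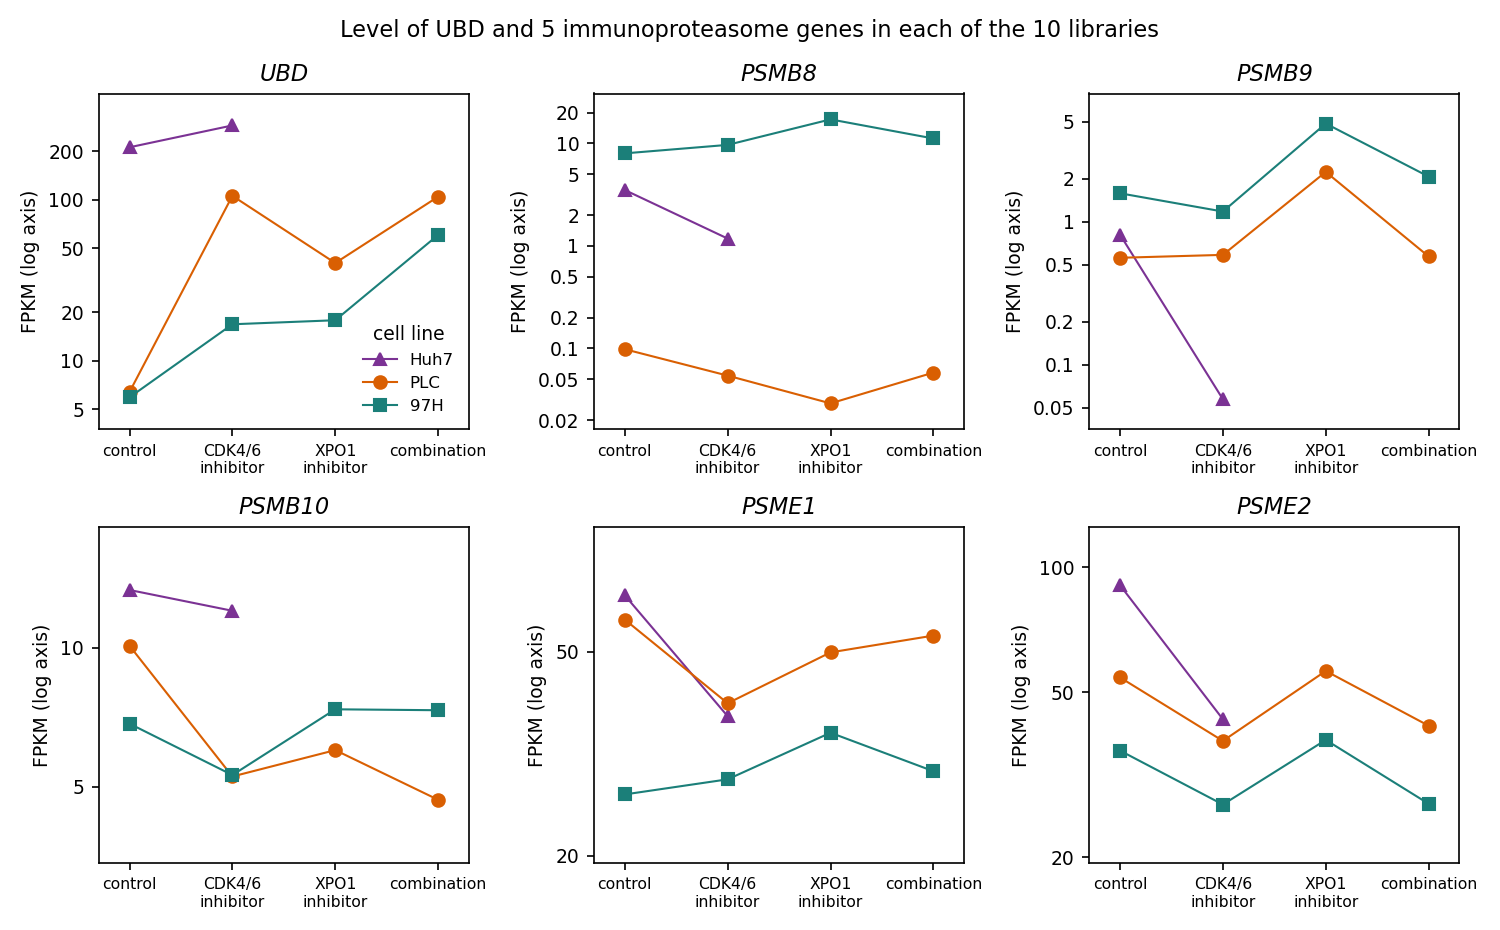
FPKM on a log axis of UBD, PSMB8, PSMB9, PSMB10, PSME1 and PSME2 in the 10 libraries, each point 1 library and each line joining the treatments of 1 cell line. UBD lies above the control of its own line in every treated library, while PSMB9 peaks with the XPO1 inhibitor, at 2.24 FPKM in PLC and 4.87 FPKM in 97H.

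The level of UBD with the combination was set against each single inhibitor within the line. In PLC, UBD with the combination stood at 0.988 times its level with the CDK4/6 inhibitor alone and at 2.58 times that with the XPO1 inhibitor. In 97H it stood at 3.59 times the level with the CDK4/6 inhibitor and 3.39 times that with the XPO1 inhibitor. Against control the ratio was 16.3 in PLC and 10.2 in 97H. So in PLC the combination library lay level with the CDK4/6 inhibitor library, and in 97H above both single inhibitor libraries. This difference between the lines has no replicate and was not tested.

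The differences were fitted with limma on log2(FPKM + 1) with cell line in the model, with Benjamini-Hochberg adjustment across all 10477 genes. Against control, UBD was higher by 1.89 on the log2 scale with the CDK4/6 inhibitor (SE 0.50, adjusted p = 0.4695, n = 3 lines) and by 1.97 with the XPO1 inhibitor (SE 0.51, adjusted p = 0.9683, n = 2 lines). Neither passed the threshold of 0.05. These 2 comparisons share control libraries with the one that brought UBD into view, and the Huh7 pair, at 0.45, is the only one outside it. With the combination UBD was higher by 3.49 (SE 0.51). The combination lay above the CDK4/6 inhibitor by 0.88 (SE 0.51, limma adjusted p = 1) and above the XPO1 inhibitor by 1.53 (SE 0.51, limma adjusted p = 0.7804), and these comparisons share the combination libraries. Without the 97H CDK4/6 inhibitor library the first of these was -0.07. The combination departed from the sum of the single differences by -1.08 (SE 0.73, limma adjusted p = 0.9999).

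No member was called with the CDK4/6 inhibitor, the XPO1 inhibitor, the combination against either inhibitor or the interaction, where the share of all genes called was also 0%. At an unadjusted p under 0.05, limma had 2 members with the CDK4/6 inhibitor (UBD and PSME2, against 8.8% of all genes), 2 with the XPO1 inhibitor (UBD and PSMB9, against 2.46%), none for the combination against the CDK4/6 inhibitor (3.29%), 2 for the combination against the XPO1 inhibitor (UBD and PSMB9, 4.96%) and none for the interaction (0.573%). UBD is in each count of 2, and these comparisons share control or combination libraries with the contrast that selected it. Nothing is therefore read from those counts against the shares. In the combination against control 1 member was called, UBD, beside 0.792% of all genes. From that count nothing is read, since this contrast chose UBD. It was 0 without the PLC control, the PLC combination or the 97H combination library. UBD was the only member above its control in all 3 lines with the CDK4/6 inhibitor, as were 12.9% of all genes. PSMB10 and PSME2 were below it in all 3, as were 10.3%, although PSMB10 in Huh7, at -0.14, stood at -0.0069 under median ratio scaling and 0.00082 with GC content and length trends removed.

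**Figure D2:**
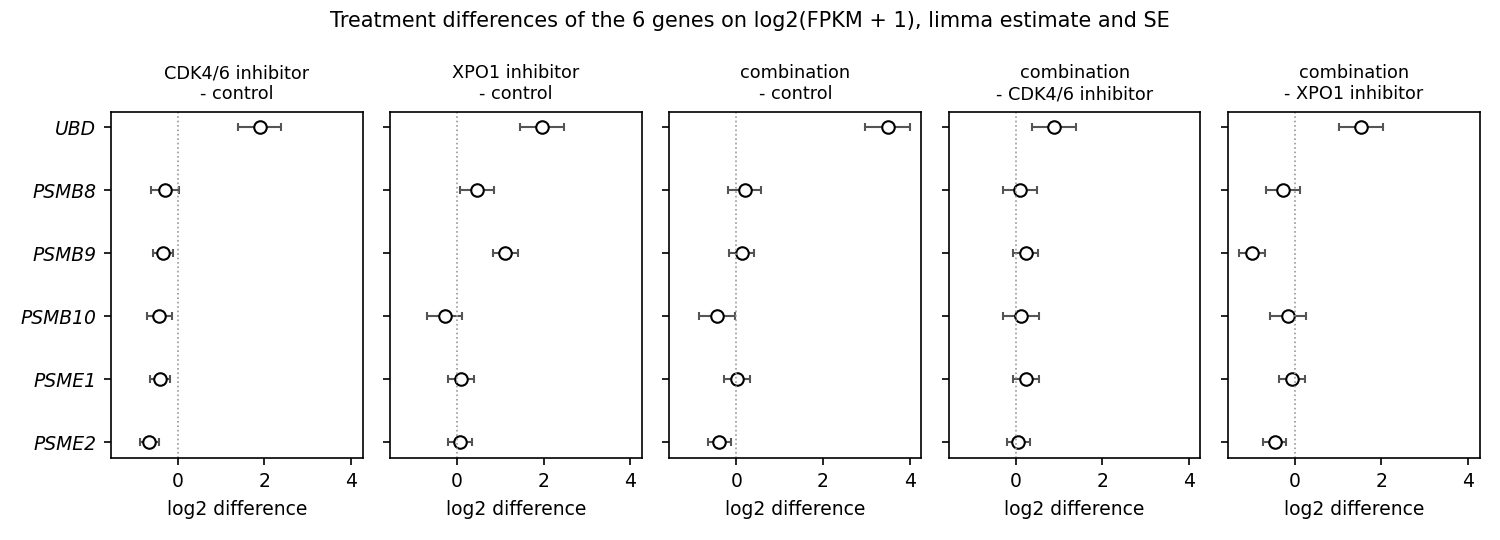
Estimates of limma with their SE for the 6 genes in 5 treatment comparisons, as log2 differences of FPKM + 1. UBD stands at 1.89, 1.97 and 3.49 against control, and the other 5 genes lie between -0.66 and 1.12 in those comparisons.

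PSMB8 and PSMB9, the immunoproteasome subunits that replace PSMB5 and PSMB6, stood highest with the XPO1 inhibitor in 97H, and PSMB9 also in PLC. The PLC levels of PSMB9 were 0.561, 0.588, 2.24 and 0.573 FPKM in control, CDK4/6 inhibitor, XPO1 inhibitor and combination. In 97H its 4 levels were 1.59, 1.18, 4.87 and 2.07 FPKM. The XPO1 inhibitor library thus stood at 3.99 and 3.07 times its control in PLC and 97H, and at 3.91 and 2.35 times the combination library. The PLC ratios are uncertain, since they divide by low levels. Scaled by relative depth, PLC control and combination stood at 7.79 and 9.22 times the lowest library, Huh7 with the CDK4/6 inhibitor. That lowest library may rest on very few reads. On the log2 scale PSMB9 was higher with the XPO1 inhibitor by 1.12 (SE 0.29, limma adjusted p = 0.9683, unadjusted p = 0.0039, higher in 2 of 2 lines, as 21.7% of all genes were). It was lower with the combination than with the XPO1 inhibitor by a difference of -0.99 (SE 0.29, limma adjusted p = 0.6616, unadjusted p = 0.0079), lower in 2 of 2 lines, as 28.3% of all genes were. Neither passed. The interaction was -0.88 (SE 0.41, limma adjusted p = 0.9999), and the combination against the CDK4/6 inhibitor was 0.24 (SE 0.29, limma adjusted p = 1). In PLC the CDK4/6 inhibitor and the combination left PSMB9 within 0.03 of control on the log2 scale. With GC content and length trends removed those 2 values were -0.41 and -0.22, and the XPO1 inhibitor value in PLC went from 1.05 to 0.61.

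PSMB8 was nearly absent from PLC. Its 4 PLC levels were 0.0984, 0.0544, 0.0291 and 0.0582 FPKM in control, CDK4/6 inhibitor, XPO1 inhibitor and combination. Scaled by relative depth, these stand at 3.03, 2.02, 1 and 2.07 times the lowest, near whole multiples, as a handful of reads would give, so no fold is given. The 97H libraries held 8.004, 9.68, 17.2 and 11.2 FPKM, the XPO1 inhibitor library standing at 2.15 times control. PSMB8 and PSMB9 were among the 2.15% of genes at least 1 log2 unit higher in 97H with the XPO1 inhibitor. In Huh7 PSMB8 was at 3.51 FPKM in control and 1.18 FPKM with the CDK4/6 inhibitor, and PSMB9 at 0.814 and 0.0574 FPKM. The last value is the lowest PSMB9 level of all 10 libraries and may rest on very few reads, so no fold is given. Over all 3 lines with the CDK4/6 inhibitor, PSMB8 was at -0.29 (SE 0.32, limma adjusted p = 0.8729). PSMB9 was at -0.33 there (SE 0.23, limma adjusted p = 0.7407). With the XPO1 inhibitor, given to PLC and 97H only, PSMB8 was at 0.46 (SE 0.39, limma adjusted p = 0.9683). That value is made of -0.09 in PLC and 1.01 in 97H. Without a Huh7 library the CDK4/6 inhibitor value of PSMB8 was 0.09, on the other side of 0.

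PSMB10, which replaces PSMB7, was present in every library at a level that varied little in Huh7 and 97H. It was at 13.4 and 12.0 FPKM in Huh7 control and CDK4/6 inhibitor. In PLC it was at 10.1 FPKM in control and at 5.26, 6.00 and 4.68 FPKM with the CDK4/6 inhibitor, the XPO1 inhibitor and the combination, so that all 3 treated libraries lay under the control. In 97H the levels were 6.85, 5.30, 7.36 and 7.33 FPKM, of which only the CDK4/6 inhibitor library lay under the control by more than 0.1 on the log2 scale (-0.32). The fitted differences were -0.43 with the CDK4/6 inhibitor (SE 0.29, limma adjusted p = 0.7218) and, without a test, -0.44 with the combination (SE 0.41), the latter made of -0.97 in PLC and 0.08 in 97H. With GC content and length trends taken out, the PLC values went from -0.83, -0.67 and -0.97 to -0.51, -0.33 and -0.62. In 97H the CDK4/6 inhibitor value of PSMB10 then went to -0.63, the XPO1 inhibitor value from 0.09 to -0.04 and the combination value to -0.25.

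The share of each immunoproteasome subunit in the summed FPKM of its exchanged pair puts the 3 subunits on 1 scale. PSMB8 made up 11.1%, 11.2%, 23.1% and 16.1% of PSMB8 and PSMB5 in 97H, in the order control, CDK4/6 inhibitor, XPO1 inhibitor, combination. The same share was 2.18% and 0.829% in Huh7 and at most 0.0481% in PLC. PSMB9 made up 1.09%, 0.850%, 3.38% and 1.801% of PSMB9 and PSMB6 in 97H, and 0.168%, 0.338%, 0.988% and 0.326% in PLC. In Huh7 it made up 0.246% and 0.0331%. PSMB10 made up 4.63% and 6.90% of PSMB10 and PSMB7 in Huh7, 5.92%, 4.08%, 3.88% and 3.74% in PLC, and 3.96%, 3.56%, 5.14% and 6.24% in 97H. The constitutive partner exceeded the immunoproteasome subunit in all 3 pairs and all 10 libraries. Over the 3 pairs together, the immunoproteasome subunits held 1.26% to 1.59% in PLC, 2.27% and 2.71% in Huh7 and 4.20% to 8.14% in 97H, so the lines did not overlap in this sum. Taken singly, only the PSMB8 share was separate in all 3 lines. The PSMB10 shares overlapped in all 3, and the PSMB9 share of PLC overlapped those of Huh7 and 97H. For the levels of single genes, 43.6% to 57.8% of all tested genes did not overlap between 2 lines. Only RNA was measured, and the shares say nothing of assembled proteasomes.

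**Figure D3:**
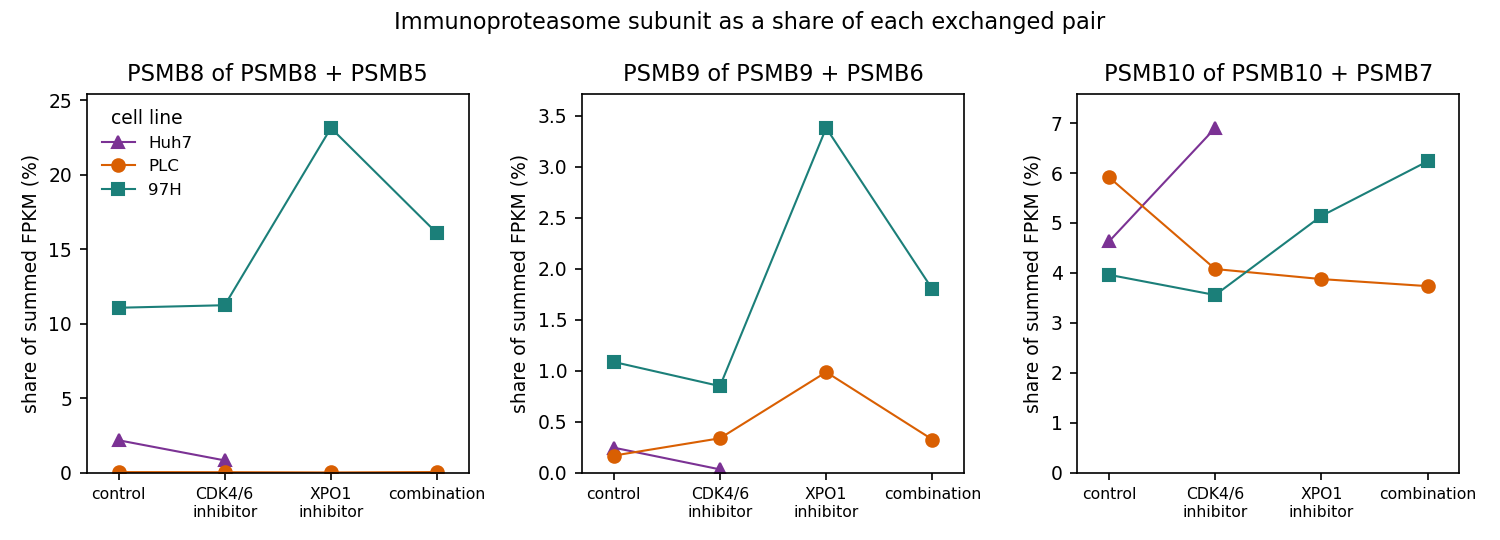
Share of PSMB8, PSMB9 and PSMB10 in the summed FPKM of the pair with PSMB5, PSMB6 and PSMB7, in percent, 1 point per library. In 97H the share of PSMB8 goes from 11.1% in control to 23.1% with the XPO1 inhibitor, while in PLC it stays at or under 0.0481%.

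The constitutive partners did not pass the test with either inhibitor or the combination. With the CDK4/6 inhibitor PSMB6 was at -0.64 (limma adjusted p = 0.4927), PSMB7 at -0.45 (limma adjusted p = 0.5588) and PSMB5 at -0.18 (limma adjusted p = 0.8834). PSMB5, the partner of PSMB8, was at 218 FPKM in PLC control and at 140.3, 138.8 and 120.9 FPKM in the 3 treated PLC libraries. In 97H it was at 64.3 FPKM in control and at 76.5, 57.1 and 58.4 FPKM with treatment.

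PSME1 and PSME2, the PA28 activator subunits, were the most abundant of the 5 immunoproteasome genes in every library. PSME2 was at 90.5 FPKM in Huh7 control and 43.0 FPKM with the CDK4/6 inhibitor, a log2 difference of -1.06. PSMB8 and PSME2 were among the 4.33% of genes at least 1 log2 unit lower there. In PLC it was at 54.3, 38.2, 56.3 and 41.5 FPKM, and in 97H at 36.2, 26.8, 38.4 and 26.9 FPKM, in control, CDK4/6 inhibitor, XPO1 inhibitor and combination. In both lines the 2 libraries with the CDK4/6 inhibitor, alone or combined, lay under the 2 without it. This separation was not tested, and the share of all genes that show it was not counted. The fitted difference with the CDK4/6 inhibitor was -0.66 (SE 0.22, limma adjusted p = 0.4918, unadjusted p = 0.0125, lower in 3 of 3 lines). With the combination PSME2 was at -0.40 against control (SE 0.27, no test) and at -0.46 against the XPO1 inhibitor (SE 0.27, limma adjusted p = 1). With the XPO1 inhibitor alone it was at 0.05 in PLC and 0.08 in 97H, the PLC value turning to -0.24 under median ratio scaling and -0.04 with GC content and length trends removed.

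PSME1 was at 64.5 and 37.5 FPKM in Huh7, and its log2 difference there was -0.77. In PLC its levels were 57.8, 39.7, 49.9 and 53.8 FPKM and in 97H 26.4, 28.2, 34.8 and 29.2 FPKM. With the CDK4/6 inhibitor it was thus under the control in Huh7 and PLC and not in 97H, where the difference was 0.09 (fitted -0.40, SE 0.23, limma adjusted p = 0.6687). The ratio of PSME1 to PSME2 stayed between 0.712 and 1.296 over the 10 libraries. It was lowest in Huh7 control and highest in the PLC combination library.

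In PLC the median over all tested genes was itself shifted against control, by 0.18, 0.14 and 0.10 on the log2 scale in the CDK4/6 inhibitor, XPO1 inhibitor and combination libraries. The medians in 97H were -0.06, -0.02 and -0.01 and that in Huh7 was -0.04. Against these medians UBD in PLC, at 3.85, 2.49 and 3.83, remains far above, and PSME1 and PSME2 with the CDK4/6 inhibitor in PLC, at -0.53 and -0.50, read -0.83 and -0.79 under median ratio scaling.

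More genes were called between cell lines than between treatments. Each pair of lines was compared over matched treatments, so treatments stand in for replicates, with 1 library per line and treatment. Huh7 had the most UBD. It lay above PLC by 3.24 on the log2 scale (SE 0.58, limma adjusted p = 0.0023) and above 97H by 4.39 (SE 0.58, limma adjusted p = 0.00027), and its 2 libraries lay above all 8 others. Such separation, in either direction, was common: 45.6% of all genes had it between Huh7 and PLC and 57.8% between Huh7 and 97H. In control PLC and 97H lay close, at 6.40 and 5.93 FPKM, so their difference rests on the treated libraries. Over matched treatments PLC lay above 97H by 1.15 (SE 0.36, limma adjusted p = 0.03), with overlapping libraries. That last call was lost without either CDK4/6 inhibitor library (adjusted p up to 0.114) or either combination library, with no filter on low values (0.168), in a fit of all 10 libraries (0.0515) and under median ratio scaling (0.0507). The call of UBD between Huh7 and PLC was lost without the Huh7 control (limma adjusted p = 0.0642).

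PSMB8 ran in another order, 97H over Huh7 over PLC, and its libraries did not overlap in any pair of lines, as those of 43.6% of all genes did not for PLC and 97H, 45.6% for Huh7 and PLC and 57.8% for Huh7 and 97H. PLC lay under 97H by a difference of -3.51 (SE 0.27, limma adjusted p = 1.74e-05), between -6.14 and -3.30 over the alternative runs. Its size follows the pseudocount, at -6.14 with 0.1, since PSMB8 was nearly absent from PLC. PSMB8 passed the filter only through the lines where it is high. Its tests against PLC were therefore favoured in advance, and nothing is read from their p-values. Huh7 lay under 97H at -1.81 (SE 0.37, limma adjusted p = 0.0041) and above PLC at 1.71 (SE 0.37, limma adjusted p = 0.0068). The first of these was lost without the Huh7 CDK4/6 inhibitor library (limma adjusted p = 0.127) and the second without the Huh7 control (limma adjusted p = 0.168). PSMB9 was likewise lower in PLC than in 97H, at -0.75 (SE 0.20, limma adjusted p = 0.0159), and lower in Huh7 than in 97H, at -0.86 (SE 0.27, limma adjusted p = 0.0318). The first call of PSMB9 was lost without either XPO1 inhibitor or either combination library (limma adjusted p up to 0.108). The second was lost without any of those 4, without the Huh7 or the 97H CDK4/6 inhibitor library (up to 0.356, where the value without the Huh7 library was -0.52) and with no filter on low values (0.0557). Huh7 and PLC were -0.10 apart (SE 0.27, limma adjusted p = 0.8105).

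The activator genes were lower in 97H than in the other lines. PSME1 and PSME2 were higher in PLC than in 97H by 0.74 (SE 0.21, limma adjusted p = 0.0188) and 0.55 (SE 0.19, limma adjusted p = 0.0411), and higher in Huh7 than in 97H by 0.80 (SE 0.27, limma adjusted p = 0.0409) and 0.99 (SE 0.25, limma adjusted p = 0.0113). Under median ratio scaling none of these 4 calls held, with adjusted p of 0.214, 0.432, 0.183 and 0.0573, while all 4 directions did. Of 8 alternative settings for PLC against 97H, that one included, PSME1 kept its call in 6 and PSME2 in 5. Of 6 for Huh7 against 97H, PSME1 kept its call in only 2 and PSME2 in 5. Between PLC and 97H the call of PSME1 was also lost without either XPO1 inhibitor or either combination library (limma adjusted p up to 0.0773), and that of PSME2 also without either CDK4/6 inhibitor library (up to 0.213). Between Huh7 and 97H PSME1 kept its call without the PLC control and lost it without any other single library (limma adjusted p up to 0.407), and PSME2 lost its call without the Huh7 control (0.217). Huh7 and PLC differed by 0.06 (PSME1, limma adjusted p = 0.8881) and 0.44 (PSME2, limma adjusted p = 0.2231), neither of which passed. PSMB10 did not pass in any pair, with -0.08 for PLC against 97H (limma adjusted p = 0.8468), 0.88 for Huh7 against PLC (limma adjusted p = 0.0734) and 0.80 for Huh7 against 97H (limma adjusted p = 0.0861). Both Huh7 values passed with GC content and length trends removed, at 1.08 and 0.95, and without the PLC control, at 1.17 and 0.90.

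In all, 5 of the 6 genes were called between PLC and 97H (3 higher and 2 lower in PLC), where 44.3% of all tested genes were (27.7% higher and 16.6% lower). Between Huh7 and PLC 2 of 6 were called (28.3% of all genes), and between Huh7 and 97H 5 of 6 (35.2%). The count for PLC against 97H was 3 without either CDK4/6 inhibitor library, 2 without either XPO1 inhibitor library and 1, PSMB8, without either combination library. For Huh7 against PLC it was 0 without the Huh7 control and 3 without the PLC control. For Huh7 against 97H it was 2 without the Huh7 CDK4/6 inhibitor library, 6 without the PLC control, 4 without the PLC CDK4/6 inhibitor or the 97H control library and 3 without any other single library. PSMB8 and PSMB9 are in these counts although they passed the filter through the lines where they are high. Read against those shares, nothing is called particular to the 6 genes.

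**Figure D4:**
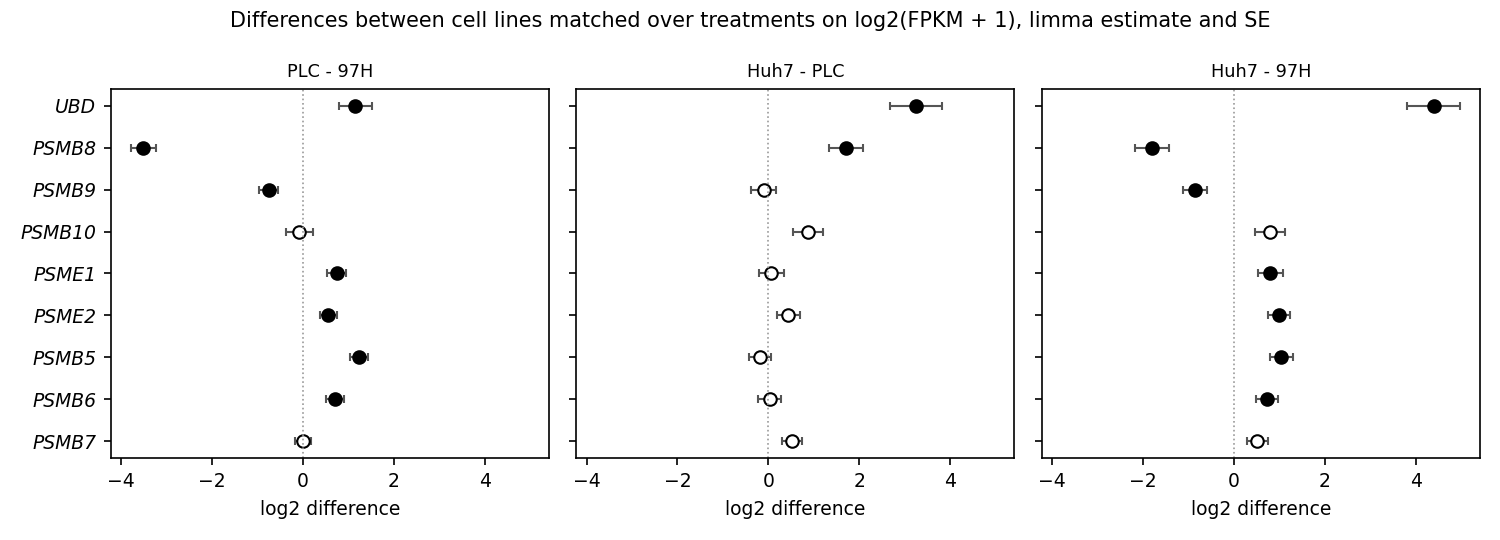
Estimates of limma with their SE for the 6 genes and the constitutive partners PSMB5, PSMB6 and PSMB7 between pairs of cell lines, as log2 differences of FPKM + 1; filled points have an adjusted p under 0.05. PSMB8 lies at -3.51 for PLC against 97H while PSMB5 lies at 1.23, and UBD is furthest right in both comparisons with Huh7.

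The constitutive partners PSMB5 and PSMB6 were higher in PLC than in 97H, by 1.23 (limma adjusted p = 0.0013) and 0.71 (limma adjusted p = 0.0179), opposite in direction to PSMB8 and PSMB9. PSMB7 was at 0.00 (limma adjusted p = 0.9982). Under median ratio scaling the 3 values were 0.94, 0.41 and -0.29. Of the 11 other subunits of the proteasome core, 6 were higher and 1 lower in PLC than in 97H, and of 4 assembly chaperones 3 were higher, beside 27.7% of all genes higher and 16.6% lower. POMP, the chaperone that helps the immunoproteasome assemble, was at 66.6 FPKM in PLC control and 22.7 FPKM in 97H control.

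Related genes were described from lists of pathway members, none of which passed in any treatment comparison. With the combination, the 11 other core subunits had a median log2 difference of -0.40, with 10 of 11 below 0, and the 3 exchanged constitutive subunits one of -0.50, while the median of all genes was 0.07. PSMA3, a core subunit, was at -0.96 (limma adjusted p = 0.374). With the CDK4/6 inhibitor those medians were -0.35 and -0.45, and with the XPO1 inhibitor -0.20 and -0.31. Within PLC alone the median of the 11 was 0.01 with the CDK4/6 inhibitor and 0.20 with the XPO1 inhibitor, and these turned to -0.29 and -0.10 under median ratio scaling, while the combination medians of both lists were below 0 in both lines under every scaling run. The 14 tested genes of MHC class I presentation had a median of 0.36 with the combination, 12 of 14 above 0. HLA-B, a class I heavy chain, was at 1.32 (limma adjusted p = 0.3098) and HLA-E, a class I molecule read by NK cells, at 1.004 (limma adjusted p = 0.2242). TAP2, a subunit of the peptide transporter, was at -1.42 (limma adjusted p = 0.2055). HLA-B went from 3.41 FPKM in 97H control to 6.96, 10.9 and 18.2 FPKM with the 3 treatments, and from 8.77 to 9.79, 6.81 and 13.0 FPKM in PLC.

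Of the 8 tested partners of FAT10, none passed with any treatment. Their median was 0.08 with the combination, -0.18 with the CDK4/6 inhibitor and 0.05 with the XPO1 inhibitor, values whose sign within lines turned with the scaling. MAD2L1, a spindle checkpoint protein that FAT10 binds, was at -1.68 with the combination (limma adjusted p = 0.2156). Its control and combination levels were 18.35 and 4.50 FPKM in PLC and 24.0 and 7.57 FPKM in 97H. NUB1, which hastens the degradation of FAT10, was at 0.94 (limma adjusted p = 0.4549), with control and combination levels of 3.85 and 14.7 FPKM in PLC against 18.2 and 20.95 FPKM in 97H.

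The interferon-stimulated genes lay mostly on opposite sides of control in the 2 lines. Of 31 interferon-stimulated genes, 16 were tested. Their median in PLC was -0.51, -0.66 and -0.88 with the CDK4/6 inhibitor, the XPO1 inhibitor and the combination, with 13, 13 and 14 of 16 below 0. In 97H it was 0.26, 0.55 and 0.54, with 13, 15 and 14 of 16 above 0. OAS1, an antiviral enzyme, was at 19.0 FPKM in 97H control and at 28.95, 72.4 and 68.1 FPKM with treatment, and at 1.19 FPKM in PLC control and 0.834, 0.342 and 0.285 FPKM with treatment. OAS3, of the same antiviral family, was at 23.7, 27.7, 38.4 and 17.3 FPKM in 97H and at 2.78, 1.101, 1.04 and 0.338 FPKM in PLC, so in 97H its combination library lay under the control. GBP2, a guanylate-binding protein and the gene of the list with the smallest p for the combination (1.43, limma adjusted p = 0.3889), went against the list in PLC, from 0.939 FPKM in control to 7.42, 9.14 and 11.1 FPKM. In 97H its levels were 3.84, 2.36, 4.98 and 4.68 FPKM. All 6 medians kept their sign with a pseudocount of 0.1, quantile normalization, median ratio scaling and removal of GC content and length trends, and they were not tested against each other. The medians of each line share 1 control library, so they are not independent. Fitted over the 3 lines, Huh7 included, the median with the CDK4/6 inhibitor was -0.01, with 7 of 16 above 0 and 9 below.

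IRF1, a transcription factor of the interferon gamma response, was at 6.30, 7.81, 10.4 and 7.30 FPKM in 97H and at 3.23, 2.54, 3.90 and 3.51 FPKM in PLC, highest with the XPO1 inhibitor in both lines. It was picked after its levels were seen and was not among the 4 smallest p of its list in any treatment comparison. That list holds interferon receptors, JAK-STAT and IRF factors. Of its 16 tested genes, 11 lay above 0 with the combination (median 0.26) and 13 with the XPO1 inhibitor (median 0.33). Of 17 tested genes of the TNF and NF-kappaB list, 14 lay above 0 with the combination (median 0.39) and 15 with the XPO1 inhibitor (median 0.35). Within 97H the combination median of this list was 0.06, and -0.001 with GC content and length trends removed. CXCL1, a chemokine, was at 1.32 with the combination (limma adjusted p = 0.2579) and 1.34 with the XPO1 inhibitor (limma adjusted p = 0.9683).

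**Figure D5:**
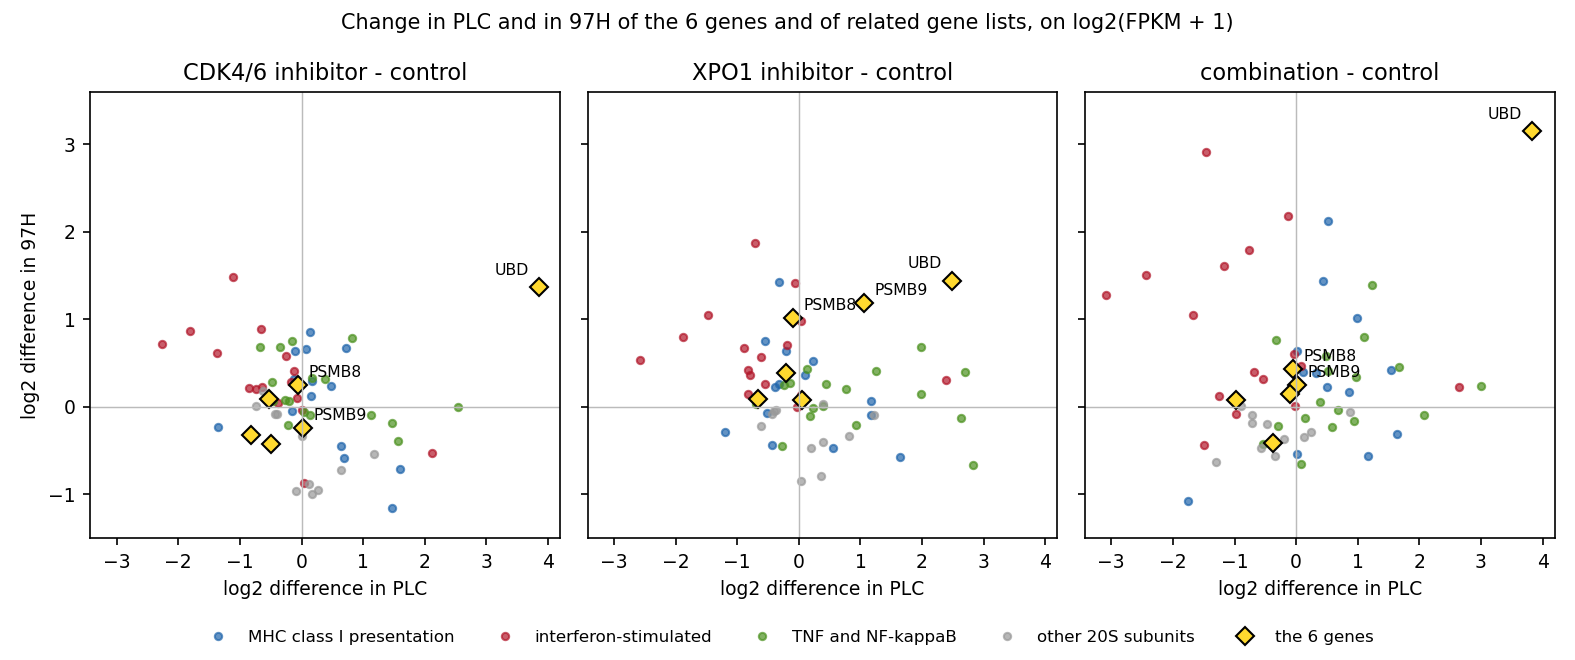
Log2 difference from control in PLC (horizontal) and in 97H (vertical) for the tested genes of 4 lists and for the 6 genes (diamonds), on log2(FPKM + 1), 1 point per gene and 1 panel per treatment. UBD lies at 3.83 and 3.15 with the combination, and the interferon-stimulated genes lie mostly to the left of 0 in PLC and above 0 in 97H.

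Genes with the profile most like that of UBD were found by Pearson correlation of log2(FPKM + 1) over the 10 libraries among all tested genes. These r values are descriptions, since libraries of 1 line resemble each other. The highest were AMACR (0.966), ANXA3 (0.958), KCTD7 (0.954), TMC7 (0.942) and CALML4 (0.939). ANXA3 was at 78.9 and 69.7 FPKM in Huh7, at 2.02, 38.2, 20.04 and 17.2 FPKM in PLC and at 1.01, 1.91, 4.68 and 10.9 FPKM in 97H, in the order control, CDK4/6 inhibitor, XPO1 inhibitor, combination. With the mean of each line subtracted, the highest were SLC44A3 (0.966), VWA5A (0.962), OPTN (0.961), IL32 (0.960) and APH1B (0.959). IL32, a cytokine gene, was at 59.2, 199.6, 157 and 319.9 FPKM in PLC and at 31.1, 69.5, 58.7 and 109.6 FPKM in 97H, but at 98.2 and 93.8 FPKM in Huh7.

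The other 5 genes had profiles unlike that of UBD. With line means subtracted, the correlation of UBD over the 10 libraries was 0.07 with PSMB8, 0.03 with PSMB9, -0.68 with PSMB10, -0.27 with PSME1 and -0.52 with PSME2. Among PSMB8, PSMB9, PSME1 and PSME2 the correlations ran from 0.52 (PSMB9 with PSME1) to 0.81 (PSMB8 with PSME1). PSMB10 stood at 0.19 with PSMB9, 0.25 with PSMB8, 0.42 with PSME1 and 0.48 with PSME2. Without subtraction PSMB8 and PSME1 stood at -0.68. The nearest single gene with line means subtracted was TCEA3 for PSMB8 (0.969), SMAD6 for PSMB9 (0.951), QARS for PSMB10 (0.973), DAXX for PSME1 (0.950) and MRPS15 for PSME2 (0.976).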

How the data were processed

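Per the labels' protocols, total RNA was taken with Trizol and libraries were made with a TruSeq RNA kit. The submitters' processing notes name CASAVA 1.8.2, STAR 2.4.2g1, the build GRCh38, and featureCounts from the Subread package. The table deposited by the authors holds FPKM for 20030 entries in 10 libraries. The sources used here do not say how FPKM was made from counts or whether strand was used. In 27 entries the symbol had become a date, and no member is among them. No pair of libraries was identical (0 pairs).

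The filter kept 10477 genes whose mean over the libraries reached 1 FPKM. Their log2(FPKM + 1) values were fitted in R 4.3.3 by limma 3.58.1 (two-sided tests after eBayes with a trend on expression), with cell line and treatment as terms. The pseudocount of 1 shrinks differences of low genes. The CDK4/6 inhibitor and the comparisons with Huh7 used all 10 libraries (4 residual degrees of freedom), and the others used only the 8 PLC and 97H libraries, which leaves 3. Genes with an adjusted p under 0.05 were called. The cell line pairs the libraries, per the labels: log2 values correlated at 0.9215 to 0.9798 within lines and 0.6842 to 0.7996 between them. Where nothing says that libraries came from separate cultures, p-values measure only the spread between these libraries. Standard errors pool the spread over all treatments of a fit.

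The members and lists were chosen with earlier results of these data known. The text names all 6 members, PSMB5 to PSMB7, and from each list up to 4 genes with the smallest p (1 gene is not reported here), together with levels picked after they were seen (IRF1, OAS1, ANXA3 and IL32). Alternatives were a pseudocount of 0.1, no filter, a filter over 8 libraries, quantile normalization, median ratio scaling, removal of GC content and length trends (GC known for 99.2% of tested genes), a single prior variance, other libraries in the fit, no replicate block, and leaving out each library.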

Additional observations from a re-analysis of the deposited data

Results flagged for a closer look

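PSMB8 went in opposite directions in single lines with the CDK4/6 inhibitor, the log2 difference from control being 0.2464 in 97H and -1.049 in Huh7. PSME1 did so with the XPO1 inhibitor, at 0.3868 in 97H and -0.2088 in PLC. Each value compares 1 library with 1 library, and neither difference between lines was tested. All 4 values kept their sign with a pseudocount of 0.1, quantile normalization, median ratio scaling and removal of GC content and length trends.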

How the results depend on the processing

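With no filter, a single prior variance or no replicate block, 0 members were called with the combination against control (0 to 1 when 1 library was left out). PLC against 97H gave 3 called members with quantile normalization and 2 with median ratio scaling (1 to 5 when 1 library was left out). Huh7 against PLC gave 0 to 3 when 1 library was left out. Huh7 against 97H gave 3 with no filter and 3 with median ratio scaling (2 to 6 when 1 library was left out). Directions turned when 1 library was left out for PSMB8 with the CDK4/6 inhibitor (-0.5985 to 0.09373), UBD in the combination against the CDK4/6 inhibitor (-0.07163 to 1.838), PSMB10 in PLC against 97H (-0.2719 to 0.07901), and PSME1 (-0.2107 to 0.3382, -0.01123 without the 97H control) and PSMB9 (-0.4387 to 0.2294, 0.1072 without the PLC CDK4/6 inhibitor library) in Huh7 against PLC. UBD with the combination lay between 3.13 and 3.67 over the other settings and between 2.79 and 4.19 when 1 library was left out. Without the replicate block (the cell line) no other call on a treatment changed, since none had been made. Where a library is left out, its treatment keeps fewer lines and is assumed to vary like the others. The cause of these changes was not tested. Depth limits PSMB8 in PLC and PSMB9 in the Huh7 CDK4/6 inhibitor library, which may rest on very few reads. Low levels also limit PSMB9 in the PLC control, CDK4/6 inhibitor and combination libraries.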
